A study of Mus musculus with 48 samples.

Results

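The genes described here are 9 serine/threonine kinase genes: Sgk1 and Sgk3, Pim1, Pim2 and Pim3, Plk2 and Plk3, and Sik1 and Snrk. They were taken by symbol from gene count tables of stretched and non-stretched C2C12 cells that list 47480 symbols, and all 9 had reads in each of the 48 libraries. The set was put together with the stretched and non-stretched values of these same libraries already known. Differences between stretched and non-stretched cells are therefore a description, with no p-value for any of the 9 genes. Tests are given for comparisons among non-stretched libraries. These comparisons were not the basis of the choice, but the values of these libraries were known, so the tests are not fully independent of it.

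For several of these kinases, though not all, the amount of mRNA is a main point of control. SGK1 is short-lived, is transcribed on serum or glucocorticoid treatment and becomes active once PDK1 and mTORC2 have phosphorylated it, and it acts on ion channels, the ubiquitin ligase NEDD4L and FOXO transcription factors. PIM kinases need no activating phosphorylation, so their activity follows their synthesis, which JAK/STAT signaling drives. PLK2 and PLK3 are the stress- and growth factor-induced relatives of the mitotic kinase PLK1. SIK1 is induced by cAMP through CREB, is activated by LKB1 and restrains class IIa histone deacetylases and CRTC coactivators. In muscle it is known for keeping MEF2 targets active. SNRK is another LKB1-activated relative of AMPK.

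C2C12 is a mouse muscle cell line that grows as myoblasts and fuses into multinucleated myotubes when serum is lowered. All cells grew on collagen-coated flexible membranes. Stretched cells received cyclic equibiaxial stretch on a Flexcell device and were harvested at 1, 3 or 6 h, and non-stretched cells are the controls of each time. There were 4 stretched and 4 non-stretched libraries for each time, in undifferentiated myoblasts and in cells already differentiated in horse serum, giving 12 groups. No gene was altered and no drug was given in any group, and one cell line stands for both stages. Within each stage, replicates 7 and 8 came from one experiment and replicates 9 and 10 from another. The stages share no experiment, so equal replicate numbers do not link them. Libraries are thus not all from separate experiments, and p-values measure the spread between these samples. Differentiated cells stretched for 1 h are replicates 4, 7, 8 and 9, and replicate 4 is the single library of a further experiment, with no non-stretched partner.

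Libraries held 48447318 to 68967899 gene counts in myoblasts and 53916927 to 77080730 in differentiated cells. Levels are given as CPM, the usual depth-scaled count of a gene, after TMM scaling of the library. Myog, a myogenic transcription factor, ranged from 0.389 to 3.22 CPM in myoblasts and from 723 to 962 CPM in differentiated cells, and embryonic myosin Myh3 ranged from 0.668 to 3.44 CPM and from 3882 to 4979 CPM. All 6 muscle markers were far higher in differentiated cells. Of 4 myoblast markers, Id1, Id3 and Myf5 had the higher median in myoblasts, but Pax7 had the lower one (27.11 CPM, against 32.15 CPM in differentiated cells). Of 4 macrophage genes, Adgre1 had no read in any library, but Cd68 and Csf1r had reads in every one. The Cd68 median was 1.164 CPM for the myoblast stage, against 0.5692 CPM after differentiation. Ptprc had no read in 4 myoblast libraries and 10 differentiated ones. Of 3 fibroblast-like markers, Pdgfra had medians of 6.96 CPM (myoblasts) and 11.25 CPM (differentiated), but Thy1 and Dpt were scarce. Thy1 had no read in 22 myoblast libraries and 15 differentiated ones. The highest Dpt value was 0.058 CPM (myoblasts) or 0.71 CPM (differentiated). The endothelial genes Pecam1, Cdh5 and Kdr reached at most 0.5745 CPM. Differentiated stretched replicate 4 stood apart in its markers of dividing cells: all 4 (Mki67, Cdk1, Top2a and Ccnb1) were above those of the other 23 differentiated libraries, with a sum of 584.5 CPM against 199.2 to 383.8 CPM. It was also above all the others in Id1 (25.5 CPM against 13.55 to 18.8 CPM), Id3 (33.98 CPM against 9.129 to 19.81 CPM) and the sum of the 4 myoblast markers (106.9 CPM against 71.85 to 98.06 CPM). Its Mef2c was below all the others (235.9 CPM against 242 to 317.9 CPM), while the other 5 muscle markers and the sum of all 6 were within their range. For Sgk1, Plk2, Plk3, Pim1, Pim3, Sik1 and Snrk, effects at 1 h in differentiated cells are given with and without replicate 4. Other values of that group include it, among them those of related genes and the correlations between genes. In bulk RNA, fewer cells of a kind and less RNA per cell cannot be told apart.

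Upstream sequence is shown for Sgk1, Plk2 and Plk3, the genes with the largest differences on stretching, because response elements are known for genes of these families. Sequences come from the RefSeq promoter table (GRCm38.p6), in which 7 of the 9 genes have 14 windows. Sgk3 and Sik1 have no entry. Each line gives the 250 bases before a start site, 5′ to 3′ on the gene's strand, with the named motif in capitals.
Sgk1, chr10:21993640-21993889, plus strand, glucocorticoid response element (GRE): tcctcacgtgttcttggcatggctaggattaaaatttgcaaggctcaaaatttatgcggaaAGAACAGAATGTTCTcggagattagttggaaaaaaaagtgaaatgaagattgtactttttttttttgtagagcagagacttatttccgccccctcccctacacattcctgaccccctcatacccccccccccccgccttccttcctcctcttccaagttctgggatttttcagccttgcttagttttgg
Plk2, chr13:110394794-110395043, plus strand, cAMP response element (CRE): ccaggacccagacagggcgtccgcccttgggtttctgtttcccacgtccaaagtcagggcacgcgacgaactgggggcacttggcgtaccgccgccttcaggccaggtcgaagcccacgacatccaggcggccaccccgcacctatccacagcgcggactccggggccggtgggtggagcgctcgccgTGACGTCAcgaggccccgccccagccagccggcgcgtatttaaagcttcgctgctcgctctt
Plk3, chr4:117133964-117134213, minus strand, half-sites of the CRE: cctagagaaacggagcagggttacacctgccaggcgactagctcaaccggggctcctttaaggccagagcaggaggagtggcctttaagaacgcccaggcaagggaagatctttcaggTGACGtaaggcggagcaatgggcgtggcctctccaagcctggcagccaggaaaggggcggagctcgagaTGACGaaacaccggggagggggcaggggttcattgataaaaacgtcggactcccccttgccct

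The Sgk1 window held the palindromic GRE, searched as AGAACA and TGTTCT with any 3 bases between them, at -189 to -175 from the start site. Of 32851 RefSeq promoters of the same table searched on both strands, 3 held it (0.00913%). The window is 1 of 6 for Sgk1 and lies in introns of longer Sgk1 transcripts. The Plk2 window held the full CRE, TGACGTCA, at -62 to -55, as did 1.55% of promoters. Plk3 held the half-site TGACG at -132 to -128 and -63 to -59. This shorter motif is part of the full CRE and was found in 17.8% of promoters. Of the 7 genes, 4 held it (5 of 14 windows): Plk3, Plk2 within its CRE, Sgk1 in another of its windows and Snrk in both of its windows. The Snrk windows overlap and hold the same sites, so the count of windows includes these sites more than once. The AP-1 site TGANTCA (6.75% of promoters) and the CArG box (1.47%) were in none of the 14 windows. The STAT site TTCNNNGAA (7.02%) was in another Sgk1 window and the TEAD site GGAATG (12.6%) in the one shown. These matches describe letters in a window and say nothing of binding.

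Sgk1 (chr10:21882184-21999903, plus strand, mm10) had the largest difference on stretching of the 9 genes, at 1 h in both stages. In myoblasts at 1 h, non-stretched replicates 7 to 10 held 192.9, 194.7, 166.2 and 175.3 CPM and stretched replicates 7 to 10 held 335.1, 318.6, 367.1 and 354.4 CPM. Every stretched library was above every non-stretched one, and this was the highest of the 12 Sgk1 groups, apart from the next. The log2 fold change was 0.91 ± 0.057 (SE), a 1.88-fold higher level that ranked 61 of 14938 genes tested. A gene met the limits when its Benjamini-Hochberg adjusted p in edgeR's quasi-likelihood test over all genes was under 0.05 and its log2 fold change was at least 0.58 in either direction. Sgk1 was the 1 member of 9 that met them here, beside 0.254% of all genes that met them upwards. The genes were chosen on this contrast, so nothing is read from that count. The log2 difference was 0.75 in the experiment of replicates 7 and 8 and 1.08 in that of replicates 9 and 10.

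**Figure D1:**
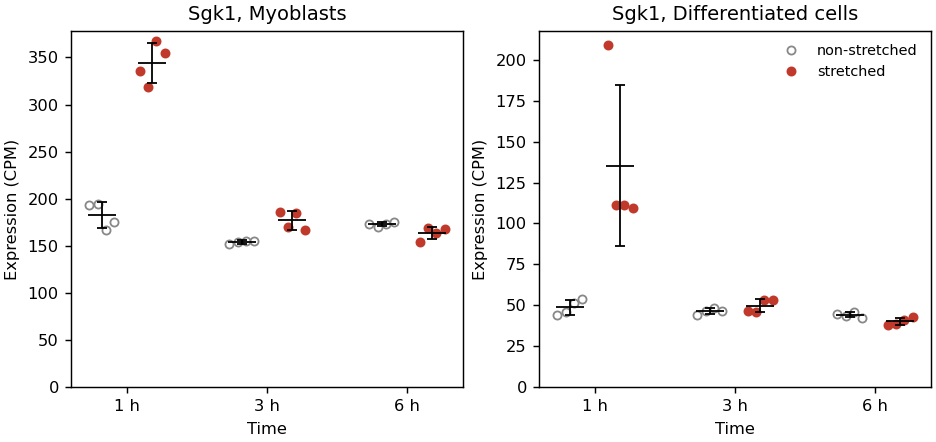
Sgk1 level (CPM, linear axis from 0) by time in myoblasts (left) and differentiated cells (right). Points are single libraries, open for non-stretched and filled for stretched, and bars give the mean and SD of 4 libraries. Stretched cells lie above non-stretched cells at 1 h in both stages, and the highest differentiated point, 209.2 CPM, is replicate 4.

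The myoblast difference in Sgk1 was smaller at 3 h and lay on the other side of zero at 6 h. Stretched libraries at 3 h held 185.7, 169.5, 185.1 and 166.9 CPM beside 151.4, 154.2, 155.1 and 155.3 CPM without stretching, a log2 fold change of 0.19 ± 0.035. At 6 h they held 154.2, 168.2, 163.2 and 168.1 CPM beside 173.4, 169.9, 172.9 and 175.5 CPM, a log2 fold change of -0.06 ± 0.030. Groups did not overlap at either time, with stretched cells above at 3 h and below at 6 h.

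Differentiated cells started from less Sgk1 and showed a larger fold. At 1 h, non-stretched replicates 7 to 10 held 43.82, 45.71, 51.52 and 53.71 CPM and stretched replicates 4, 7, 8 and 9 held 209.2, 111.6, 111.5 and 109.7 CPM. Groups did not overlap, and in the stretched group replicate 4 was far above 3 libraries that were close to each other. The difference was 1.48 ± 0.20 on the log2 scale (2.78-fold, rank 19 of 15538 genes). Without replicate 4 it was 1.19 ± 0.067 and the limits were still met. The part that its higher markers of dividing cells and myoblasts and its lower Mef2c have in the values of replicate 4, here and for the other genes, was not tested. Within experiments the log2 difference was 1.32 for replicates 7 and 8 and 1.06 for stretched replicate 9 against non-stretched replicates 9 and 10. Leaving out any 1 of the 4 non-stretched libraries ended the call, with log2 fold changes between 1.19 and 1.56 over all libraries left out in turn.

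The raised differentiated level, 135.5 CPM ± 49.15 (SD, n = 4), was still below that of non-stretched myoblasts of the same hour, 182.3 CPM ± 13.84 (n = 4), in 3 of 4 libraries. By 3 h the log2 fold change in differentiated cells was 0.11 ± 0.055 and by 6 h it was -0.14 ± 0.045, with overlapping groups at both times. The effect at 1 h was larger than in myoblasts by 0.56 ± 0.21 on the log2 scale, or by 0.27 ± 0.087 without replicate 4, a difference that was not tested.

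Sgk3 (chr1:9798107-9900845, plus strand) encodes the SGK that binds endosomal membranes. It was scarce, with 3.27 to 5.81 CPM over all libraries. Its log2 fold change at 1 h was -0.04 ± 0.083 in myoblasts and 0.04 ± 0.086 in differentiated cells. Its lowest group was myoblasts stretched for 6 h, with 3.271, 3.76, 3.354 and 3.404 CPM against 4.277, 4.16, 4.61 and 4.413 CPM in non-stretched cells. These groups did not overlap and the log2 fold change was -0.32 ± 0.073. Differentiated cells gave -0.24 ± 0.095 at 3 h and -0.28 ± 0.092 at 6 h, with overlapping groups. Sgk3 met the limits in none of the 6 comparisons.

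Plk2 (chr13:110395046-110400844, plus strand), a Polo-like kinase known in centriole duplication and at synapses, also had its largest difference at 1 h. In myoblasts at 1 h, non-stretched libraries held 141.3, 141.4, 152.3 and 146.7 CPM and stretched libraries 192.8, 188.5, 204.7 and 197.0 CPM. Groups did not overlap, and the log2 fold change of 0.43 ± 0.035 was below the fold limit. The difference was 0.43 in each of the 2 experiments. At 3 h stretched libraries held 193.9, 197.0, 198.2 and 206.2 CPM against 167.0, 173.3, 156.8 and 160.4 CPM, which is 0.26 ± 0.031 with no overlap. At 6 h they held 136.0, 144.1, 135.5 and 158.9 CPM against 161.2, 162.7, 168.5 and 166.6 CPM, so every stretched library was now below, and the log2 fold change was -0.18 ± 0.045.

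In differentiated cells at 1 h, Plk2 stood at 165.9, 166.6, 182.9 and 184.6 CPM without stretching and at 395.0, 289.2, 286.9 and 275.4 CPM in stretched replicates 4, 7, 8 and 9. This was the highest of its 12 groups, apart from the next. The log2 fold change of 0.83 ± 0.11 (1.78-fold, rank 84 of 15538) met the limits. With Sgk1, 2 of 9 members met them upwards in this comparison, beside 0.0901% of all genes, a count that again follows from the choice. Without replicate 4 the log2 fold change was 0.70 ± 0.050 and the limits were still met, whereas leaving out non-stretched replicate 7, 8 or 9 ended the call. At 3 h it was -0.05 ± 0.035 and at 6 h -0.06 ± 0.053, with overlapping groups. The effect at 3 h in differentiated cells was lower than that in myoblasts by -0.31 ± 0.047, which was not tested.

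Plk3 (chr4:117128655-117133963, minus strand), a Polo-like kinase linked to stress and DNA damage responses, had its largest difference at 3 h, in differentiated cells. There, non-stretched replicates 7 to 10 held 13.69, 15.31, 17.24 and 16.89 CPM and stretched ones 21.79, 21.06, 27.54 and 28.16 CPM. All stretched libraries were above all non-stretched ones. This is 0.64 ± 0.11 on the log2 scale (1.56-fold, rank 223 of 15513), with 0.56 in the experiment of replicates 7 and 8 and 0.71 in that of replicates 9 and 10. Plk3 was the 1 member that met the limits at 3 h, beside 0.89% of genes upwards. Without non-stretched replicate 7, stretched replicate 9 or stretched replicate 10 it fell just short of the fold limit.

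Plk3 was higher at 1 h as well, by less. In differentiated cells, stretched replicates 4, 7, 8 and 9 held 26.43, 19.59, 19.38 and 18.19 CPM against 15.46, 14.97, 15.73 and 18.16 CPM, so the groups barely parted and replicate 4 was again the highest. On the log2 scale the difference was 0.38 ± 0.12, and 0.24 ± 0.070 without replicate 4. In myoblasts at 1 h, stretched libraries held 42.98, 40.29, 46.1 and 40.96 CPM against 37.99, 39.87, 35.12 and 38.71 CPM, a log2 fold change of 0.17 ± 0.049 with no overlap. At 3 h in myoblasts it was -0.01 ± 0.038, with overlapping groups, and the difference between the stages at 3 h, 0.65 ± 0.11, was not tested.

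**Figure D2:**
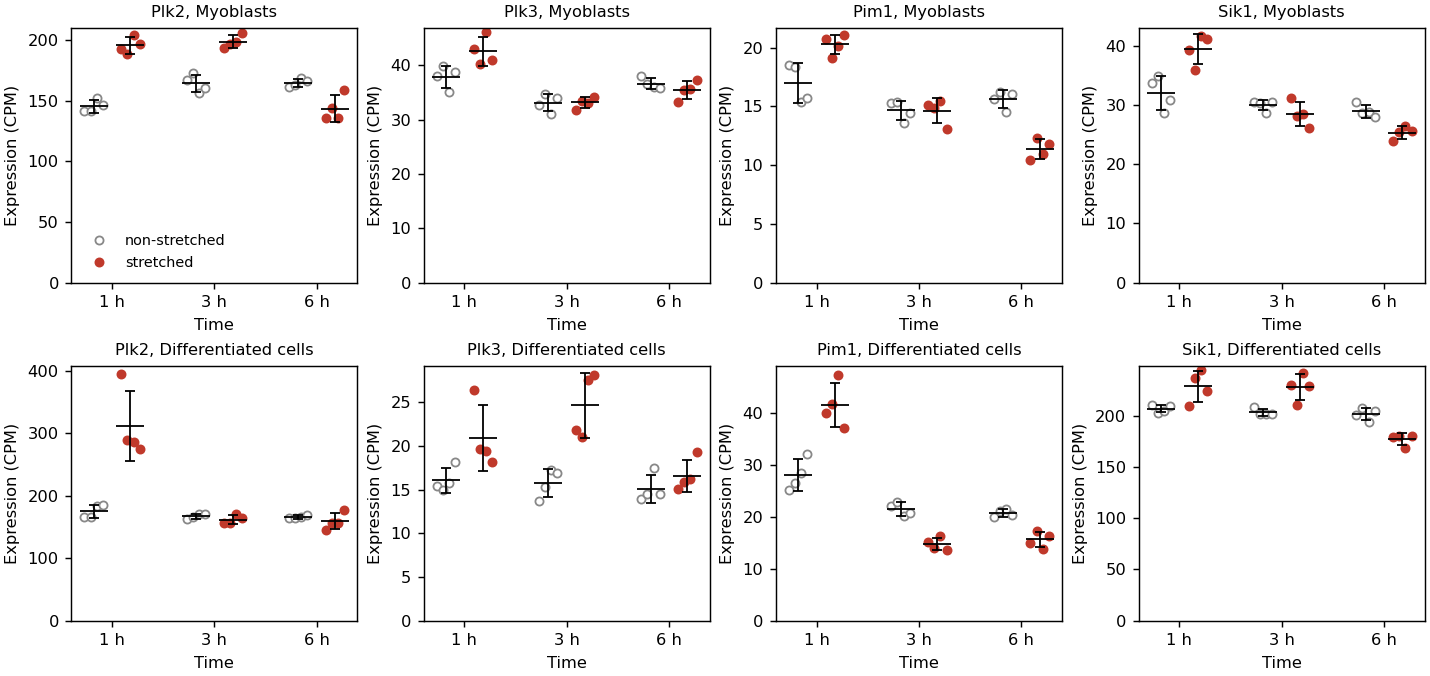
Levels (CPM, linear axes from 0) of Plk2, Plk3, Pim1 and Sik1 by time in myoblasts (top) and differentiated cells (bottom). Points are single libraries, open for non-stretched and filled for stretched, and bars give the mean and SD of 4 libraries. Plk2 and Pim1 are higher in stretched cells at 1 h, Plk3 of differentiated cells is highest at 3 h of stretching, and stretched Pim1 and Sik1 lie below non-stretched cells at 6 h in both stages.

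Pim1 (chr17:29490753-29496112, plus strand) encodes a kinase that promotes survival and cell cycle entry. An antisense gene, Gm26885, overlaps it. The library kit keeps strand, but the sources used here do not say whether counting used it, so some reads may belong to the antisense gene. Pim1 was higher after 1 h of stretching and lower after longer stretching. In differentiated cells at 1 h, non-stretched libraries held 25.09, 26.53, 28.41 and 32.11 CPM and stretched replicates 4, 7, 8 and 9 held 39.99, 41.68, 47.29 and 37.17 CPM. The groups did not overlap, and here replicate 4 was not the highest. The log2 fold change of 0.57 ± 0.090 was just under the fold limit and was 0.58 ± 0.096 without replicate 4, which met it. It was 0.78 for replicates 7 and 8 and 0.30 for stretched replicate 9 against non-stretched replicates 9 and 10.

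At 3 h and 6 h, Pim1 of differentiated cells lay on the other side. Stretched libraries held 15.12, 14.0, 16.33 and 13.63 CPM at 3 h against 22.1, 22.94, 20.08 and 20.69 CPM, a log2 fold change of -0.53 ± 0.064. At 6 h they held 15.01, 17.3, 13.88 and 16.37 CPM against 19.97, 21.21, 21.5 and 20.32 CPM, a log2 fold change of -0.41 ± 0.065. All stretched libraries were below all non-stretched ones at both times, and the fold limit was not reached. Without stretched replicate 9 the log2 fold change at 3 h was -0.59 ± 0.061, which met the limits. From 1 h to 3 h the effect moved by -1.10 ± 0.11 on the log2 scale, or by -1.12 ± 0.11 without replicate 4, which was not tested.

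In myoblasts Pim1 was also higher at 1 h and lower at 6 h. Stretched libraries at 1 h held 20.77, 19.16, 20.16 and 21.05 CPM against 18.53, 18.36, 15.42 and 15.7 CPM, a log2 fold change of 0.25 ± 0.065 that was 0.11 in one experiment and 0.40 in the other. At 3 h it was -0.01 ± 0.055. At 6 h stretched libraries held 10.44, 12.31, 10.93 and 11.8 CPM against 15.61, 16.27, 14.55 and 16.06 CPM, the lowest of the 12 Pim1 groups, with no overlap and a log2 fold change of -0.44 ± 0.058. At 3 h the effect in differentiated cells was lower than that in myoblasts by -0.52 ± 0.084 on the log2 scale, which was not tested.

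Pim3 (chr15:88862186-88865726, plus strand) and Pim2 (chrX:7878262-7883432, plus strand) encode the other PIM kinases. Pim3 was highest in myoblasts stretched for 1 h, with 71.01, 68.43, 67.08 and 70.6 CPM against 59.6, 60.16, 50.48 and 54.35 CPM and no overlap. Its log2 fold change was 0.30 ± 0.053, and at 3 h and 6 h it was -0.06 ± 0.045 and -0.10 ± 0.040. In differentiated cells at 1 h it was 0.19 ± 0.12, but the groups overlapped, and replicate 4 held 33.75 CPM where the other 3 stretched libraries held 20.97, 25 and 23.81 CPM. Without replicate 4 it was 0.04 ± 0.068. Pim2 was scarce, with 2.94 to 6.85 CPM over all libraries. Its largest log2 fold change was 0.36 ± 0.12, in myoblasts at 6 h, where stretched libraries held 6.073, 4.785, 6.847 and 4.955 CPM and overlapped the 4.868, 4.424, 3.953 and 4.73 CPM of non-stretched cells. Neither gene met the limits in any comparison.

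Sik1 (chr17:31844250-31855804, minus strand) shifted by little on stretching in both stages. In myoblasts at 1 h, stretched libraries held 39.17, 35.93, 41.59 and 41.07 CPM against 33.75, 34.83, 28.65 and 30.73 CPM, with no overlap and a log2 fold change of 0.30 ± 0.062. This was 0.13 in the experiment of replicates 7 and 8 and 0.48 in that of replicates 9 and 10. At 6 h stretched libraries held 23.84, 25.43, 26.44 and 25.61 CPM against 30.48, 28.56, 28.83 and 27.9 CPM, all below, with a log2 fold change of -0.17 ± 0.041. Differentiated cells held far more Sik1, and the log2 fold change was 0.15 ± 0.051 at 1 h, 0.17 ± 0.040 at 3 h and -0.19 ± 0.036 at 6 h. At 1 h stretched replicates 4, 7, 8 and 9 held 210.0, 236.6, 244.5 and 224.3 CPM against 210.4, 202.8, 204.9 and 209.5 CPM. These groups overlapped only through replicate 4, and without it the log2 fold change was 0.18 ± 0.039. At 6 h in these cells stretched libraries held 178.9, 180.5, 168.2 and 179.9 CPM, below the 200.4, 208.0, 194.1 and 204.2 CPM of non-stretched cells.

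Snrk (chr9:122117266-122169702, plus strand) lay on the opposite side at 1 h. In differentiated cells at 1 h, stretched replicates 4, 7, 8 and 9 held 21.22, 21.34, 20.44 and 23.76 CPM against 25.54, 26.72, 24.57 and 26.21 CPM. All stretched libraries were lower, with a log2 fold change of -0.25 ± 0.057, and -0.24 ± 0.060 without replicate 4. In myoblasts at 1 h it was -0.09 ± 0.040, also without overlap. At 6 h it was 0.17 ± 0.049 in myoblasts and 0.08 ± 0.041 in differentiated cells, with overlapping groups.

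**Figure D3:**
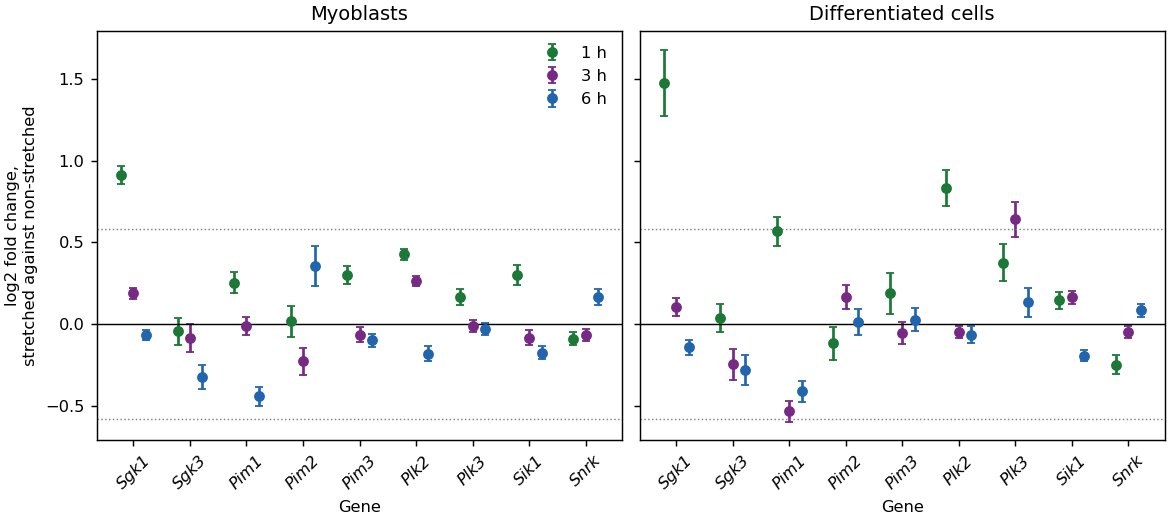
Log2 fold change of stretched against non-stretched cells for the 9 genes at 1 h (green), 3 h (purple) and 6 h (blue), in myoblasts (left) and differentiated cells (right). Points are estimates of edgeR over 8 libraries, bars are the SE, and dotted lines mark 0.58 in either direction. Sgk1 at 1 h has the largest value in both stages (0.91 and 1.48), and Plk2 at 1 h and Plk3 at 3 h pass the upper line in differentiated cells.

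Over the set, 1, 0 and 0 of 9 genes met the limits in myoblasts at 1, 3 and 6 h, and 2, 1 and 0 in differentiated cells. In either direction the limits were met by 1.25%, 1.71% and 2.17% of all genes in myoblasts and by 0.27%, 1.63% and 2.04% in differentiated cells. No member met them downwards, as 0.997%, 1.25% and 0.823% of all genes did in myoblasts and 0.18%, 0.741% and 1.52% in differentiated cells. At 1 h, stretched libraries were all above non-stretched ones for 6 members in myoblasts (5.32% of all genes) and for 4 in differentiated cells (2.46%), and all below for 1 member, Snrk, in each stage (8.03% and 3.91%). At 3 h they were above for Sgk1 and Plk2, 2 of 9, in myoblasts (17.1%), and in differentiated cells above for Pim2, Plk3 and Sik1, 3 of 9 (12.5%), and below for Pim1 (13.5%). At 6 h none was above (12.4% of all genes in myoblasts and 14.3% in differentiated cells). Below were 5 in myoblasts (16.3%) and 2, Pim1 and Sik1, in differentiated cells (12.2%). The median log2 fold change of the 9 genes was 0.25, -0.06 and -0.10 at 1, 3 and 6 h in myoblasts and 0.19, -0.05 and -0.06 in differentiated cells, and the median over all genes tested lay between -0.0074 and 0.0024. These counts describe genes that were chosen on these contrasts.

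**Figure D4:**
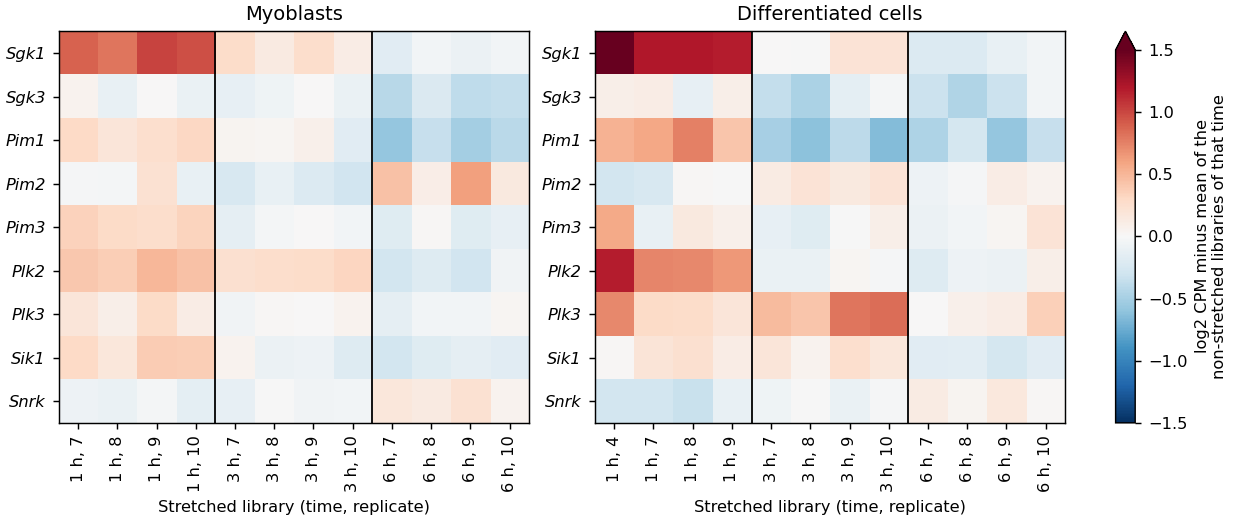
Log2 CPM of each stretched library minus the mean of the 4 non-stretched libraries of its time and stage, for the 9 genes (rows) in myoblasts (left) and differentiated cells (right). Columns are single libraries by time and replicate number, red is higher and blue lower, and the scale ends at 1.5, which Sgk1 in differentiated replicate 4 exceeds. Sgk1 and Plk2 are red in every 1 h library, and Pim1 is blue in every 6 h library of both stages and every 3 h library of differentiated cells.

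Between the stages, in cells without stretching, 4 of the 9 genes differed by more than the fold limit. The 12 non-stretched libraries of each stage entered one edgeR fit with time as a covariate, in which 50.5% of 15439 genes met both limits. Stage, experiment and medium cannot be told apart here. Of the 4 members that met them, 1 was higher (26.4% of all genes) and 3 were lower (24.1%) in differentiated cells.

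Sik1 was the one that rose. It held 27.9 to 34.83 CPM in non-stretched myoblasts (median 30.38) and 194.1 to 210.4 CPM in differentiated cells (median 203.5). The log2 fold change was 2.72 ± 0.026, a 6.61-fold higher level (edgeR, adjusted p = 2.29e-32). All 6 differentiated groups, stretched or not, were above all 6 myoblast groups.

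Sgk1, Pim3 and Plk3 fell on differentiation. Sgk1 ranged from 151.4 to 194.7 CPM in myoblasts (median 171.4) and from 42.38 to 53.71 CPM in differentiated cells (median 45.77), which is -1.90 ± 0.036 on the log2 scale (edgeR, adjusted p = 6.16e-26). Pim3 ranged from 48.45 to 60.16 CPM and from 21.7 to 27.05 CPM, or -1.25 ± 0.039 (adjusted p = 3.4e-21). Plk3 ranged from 31.12 to 39.87 CPM and from 13.69 to 18.16 CPM, or -1.22 ± 0.043 (adjusted p = 6.19e-20). For none of the 3 did the stages overlap, as was the case for 66.6% of all genes.

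The other members differed by less than the fold limit. Pim1 was higher in differentiated cells by 0.53 ± 0.048 on the log2 scale (edgeR, adjusted p = 5.05e-11) and Snrk by 0.38 ± 0.024 (adjusted p = 2.25e-14), both without overlap, and Pim2 was lower by -0.31 ± 0.046 (adjusted p = 7.15e-07) with overlap. An adjusted p under 0.05 was reached by 90.6% of all genes here. Plk2 differed by 0.07 ± 0.032 (adjusted p = 0.031) and Sgk3 by 0.07 ± 0.048 (adjusted p = 0.161). Plk2, at 158.2 CPM ± 10.68 in myoblasts and 169.5 ± 7.086 in differentiated cells (SD, n = 12 each), was thus close to level between the stages. The sign of each of these 2 small differences turned at 1 of the 3 times taken alone.

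**Figure D5:**
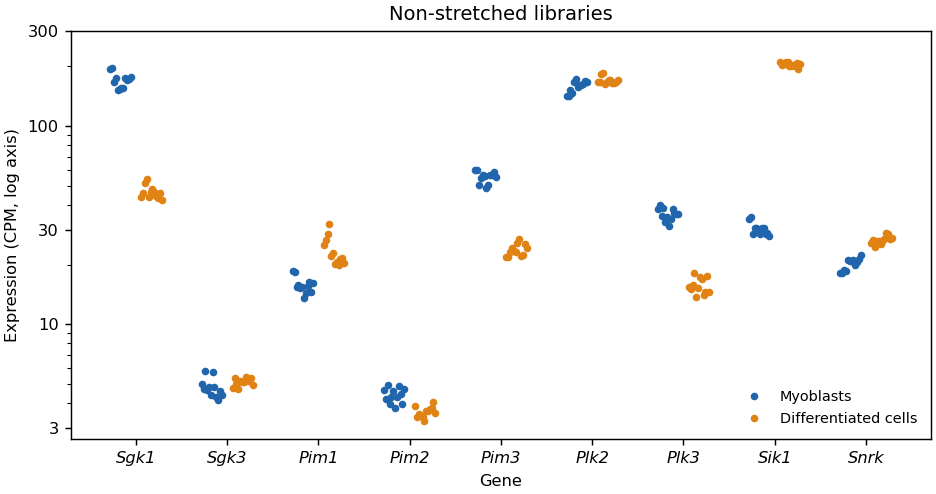
Levels (CPM, log axis) of the 9 genes in the 12 non-stretched libraries of myoblasts (blue) and of differentiated cells (orange). Each point is a library. Sik1 is higher in differentiated cells, Sgk1, Pim3 and Plk3 are lower without overlap, and Plk2 and Sgk3 overlap.

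Levels of different genes are compared per kilobase of the longest transcript (CPM per kb). In non-stretched myoblasts Plk2 (56.49 CPM per kb) and Sgk1 (54.83) were the most abundant of the 9, followed by Pim3 (22.78) and Plk3 (15.1), and then Sik1 (6.702), Pim1 (5.843), Snrk (4.184), Pim2 (3.943) and Sgk3 (1.266). In differentiated cells Plk2 (60.53) and Sik1 (45.11) led, and Sgk1 (14.95), Pim3 (9.752) and Pim1 (8.677) followed. Of sequence stretches of 31 bases, 0 to 4.52% in each gene's transcripts also occur in other genes, the highest share being that of Pim2.

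Some of the same genes differed with time in cells that were not stretched. Among the 12 non-stretched myoblast libraries, edgeR's F test over the 3 times gave an adjusted p under 0.05 for 4 of 9 members and for 4.31% of 15213 genes. Plk2 was at 145.4 CPM at 1 h, 164.4 CPM at 3 h and 164.7 CPM at 6 h (adjusted p = 0.00579), and Snrk at 18.44, 20.9 and 21.05 CPM (adjusted p = 0.0107). Sgk1 was at 182.3, 154.0 and 172.9 CPM (adjusted p = 0.0156), so its mean was lowest at 3 h and highest at 1 h. The 1 h and 6 h libraries overlapped. Replicates 7 and 8 held 192.9 and 194.7 CPM at 1 h against 173.4 and 169.9 CPM at 6 h. Replicates 9 and 10 held 166.2 and 175.3 CPM against 172.9 and 175.5 CPM. Plk3, at 37.92, 33.14 and 36.64 CPM, was at the edge (adjusted p = 0.0485) and lost the call in 11 of 12 fits that left out a library, with adjusted p of 0.058 to 0.141.

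In non-stretched differentiated cells, Pim1 was the 1 of 9 members that changed over time, beside 0.108% of 15813 genes. It fell from 28.03 CPM at 1 h to 21.45 CPM at 3 h and 20.75 CPM at 6 h (edgeR F test, adjusted p = 0.0439). The call was lost in 11 of 12 fits that left out a library, with adjusted p of 0.0678 to 0.155. Sgk1 (48.69, 46.2 and 44.01 CPM) and Plk2 (175.0, 167.4 and 166.1 CPM) had adjusted p of 0.53 and 0.642.

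Related genes were followed in 6 lists, and few of them met the limits on stretching. The lists were chosen with earlier results of these data known. Adjusted p-values of list genes are therefore descriptions and no independent tests. No gene of the SGK list (19 genes: activators, relatives and substrates), the PIM list (19 genes of JAK/STAT regulation and PIM substrates) or the LKB1 and SIK list (23 genes, 21 tested in each comparison) met the limits in any of the 6 comparisons. Their list medians lay between -0.05 and 0.04 on the log2 scale, beside medians of all genes close to 0. Medians of the other lists lay between -0.05 and 0.16. The highest were those of differentiated cells at 1 h, 0.16 for the CREB and cAMP list and 0.12 for the glucocorticoid list. The mitotic kinase Plk1, relative of Plk2 and Plk3, had log2 fold changes of -0.16 to 0.06 and, like Tsc22d3 and Fkbp5 of the next list, is named after its values were seen.

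Of 12 genes listed for the glucocorticoid receptor and its targets, 8 to 10 were tested. Errfi1, a feedback inhibitor of the EGF receptor, rose in differentiated cells at 3 h from 112.4 CPM ± 4.009 to 187.8 ± 30.63 (SD, n = 4 each), which is 0.74 ± 0.095 on the log2 scale (edgeR, adjusted p = 0.000636). Mt2, a metallothionein, rose there by 0.72 ± 0.065 (edgeR, adjusted p = 0.000126) and at 6 h by 0.60 ± 0.074 (adjusted p = 0.000727). The other gene called at 6 h was Klf15, with a mean of 14.88 counts, too few for the limit set for naming and named after its value was seen. At 1 h none of 9 tested genes of this list met the limits in either stage, beside 1.25% of all genes in myoblasts and 0.27% in differentiated cells. Errfi1 of differentiated cells was at 93.21 CPM ± 1.147 without stretching and 203.4 ± 114.2 with it at 1 h, which is 1.13 ± 0.29 on the log2 scale (edgeR, adjusted p = 0.153). Replicate 4 is among these stretched libraries. Tsc22d3 and Fkbp5, both standard glucocorticoid targets, had log2 fold changes at 1 h of -0.12 ± 0.084 and -0.01 ± 0.032 in myoblasts and of -0.35 ± 0.080 and 0.12 ± 0.062 in differentiated cells. The median of the whole list at 1 h was 0.04 in myoblasts and 0.12 in differentiated cells. A part of glucocorticoid signaling in the Sgk1 values was not tested.

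Of 17 genes for other Polo kinases and p53 targets, Btg2, an antiproliferative gene, fell in myoblasts at 3 h by -0.58 ± 0.050 on the log2 scale (edgeR, adjusted p = 5.83e-06), and no other gene of this list met the limits. In differentiated cells at 1 h Btg2 was at 39.86 CPM ± 0.5327 without stretching and 73.55 ± 32.98 with it, which is 0.88 ± 0.23 on the log2 scale (edgeR, adjusted p = 0.164). Of 12 CREB and cAMP-induced genes, Nr4a1, an orphan nuclear receptor, rose in myoblasts at 1 h from 11.38 CPM ± 1.133 to 23.96 ± 2.451, or by 1.08 ± 0.082 on the log2 scale (edgeR, adjusted p = 4.28e-05). Its log2 fold change in differentiated cells at 1 h was 1.92 ± 0.42 (adjusted p = 0.0867), where stretched libraries spread widely (SD 65.65 CPM). For Btg2 and Nr4a1 alike, these differentiated 1 h libraries include replicate 4. Nr4a3 met the limits in myoblasts at 6 h with few counts (mean 49.9) and is named after its value was seen.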

How the data were processed

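RNA of C2C12 cells was sequenced from strand-marking mRNA libraries. Per the labels' processing notes the authors used STAR, Salmon and DESeq2 with mm10, and they deposited, for each stage, whole-number counts per gene symbol and library without normalization. All 48 columns were used. A stretched 1 h myoblast library with an odd experiment code was read as belonging to the experiment of replicates 9 and 10. The labels call the RNA nuclear, while the study's methods describe RNA of whole cells. No 2 libraries of a group agreed within sampling noise.

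The 9 genes and the gene lists were chosen with earlier results of these data known. Counts were filtered with filterByExpr, scaled with TMM and tested by quasi-likelihood in edgeR 4.0.16 under R 4.3.3, 8 libraries per stretch comparison, with Benjamini-Hochberg adjustment over all genes, an adjusted p limit of 0.05 and a log2 fold change limit of 0.58. Level plots and CPM use one TMM scaling of all 48 libraries, and log2 CPM a prior count of 1. Named list genes needed a mean of 100 counts and a call, at most 4 per list. Some genes that resembled a member in level are not reported here. Replicate numbers were not taken to pair libraries, since the correlations of same-numbered deviations ran from -0.0665 to 0.105. Scripts were tested on simulated data. Alternatives were DESeq2 1.42.0, RLE scaling, other count filters, experiment and replicate terms, single times and leaving out each library. Positions and transcript lengths are from GENCODE vM21 on mm10, which matched 45213 symbols (95.2%). Depth per library was 48447318 counts or more, so that the lowest value of any of the 9 genes still rests on 155 counts.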

Additional observations from a re-analysis of the deposited data

Results flagged for a closer look

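Of 108 groups of 4 libraries (9 genes in 12 groups), 8 held a library whose gap to the nearest of the others took up more of the group's range than Dixon's critical value for 4 samples allows. Chance alone gives about 1 in 20 groups. In differentiated cells stretched for 1 h, replicate 4 was such a library for Sgk1 (209.2 CPM), Plk2 (395.0 CPM) and Plk3 (26.43 CPM), each time as the highest, and in the same group replicate 8 was low for Sgk3 (4.544 CPM). The other libraries that lay apart were Plk3 in non-stretched differentiated cells at 6 h (replicate 9, 17.43 CPM) and 3 for Sik1. These were non-stretched myoblasts at 3 h (replicate 9, 28.63 CPM), non-stretched differentiated cells at 3 h (replicate 7, 208.8 CPM) and differentiated cells stretched for 6 h (replicate 9, 168.2 CPM).

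In 9 of 81 pairs of stretch effects, all stretched libraries were above all non-stretched ones in one comparison and below them in the other. The share of such pairs over all genes was not computed, so nothing is read from this count. In single comparisons the groups did not overlap for 13.3%, 30.8% and 28.7% of all genes in myoblasts at 1, 3 and 6 h. In differentiated cells these shares were 6.37%, 25.9% and 26.4%. None of the differences between paired effects was tested. In myoblasts the effect at 6 h minus that at 1 h was -0.98 for Sgk1, -0.69 for Pim1, -0.61 for Plk2 and -0.48 for Sik1 on the log2 scale, and the effect at 6 h minus that at 3 h was -0.25 for Sgk1 and -0.44 for Plk2. In differentiated cells Pim1 moved by -1.10 from 1 h to 3 h and by -0.98 from 1 h to 6 h, and Sik1 by -0.36 from 3 h to 6 h.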

How the results depend on the processing

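DESeq2, RLE scaling, other count filters and one model of all 24 libraries of a stage left the number of the 9 genes that met the limits as it was in each comparison where they were run. Dropping the fold limit raised it to 5, 3 and 6 in myoblasts at 1, 3 and 6 h, beside 5.92%, 31.9% and 27.2% of all genes, and to 3 in differentiated cells at each time, beside 0.663%, 22.2% and 22.3%. With one library left out, counts ran from 0 to 3 in differentiated cells at 1 h and from 0 to 1 at 3 h. They ran from 3 to 6 and from 0 to 1 for change over time in non-stretched myoblasts and differentiated cells, and stayed at 1 in myoblasts at 1 h and at 4 between the stages. Plk2 and Sgk1 of differentiated cells at 1 h lost their calls without non-stretched libraries with their fold changes still past the fold limit, whereas Plk3 at 3 h fell short of that limit. Pim1 of differentiated cells at 1 h met the limits with experiment as a covariate (0.59 on the log2 scale), where replicate 4 has its own level and adds nothing, and also without non-stretched replicate 10 (0.64) or stretched replicate 9 (0.62). Between the stages, the 1 h libraries alone turned Sgk3 to -0.04 and the 6 h libraries alone turned Plk2 to -0.0199, and Pim1 met the limits at 1 h alone (0.71). The cause of these changes was not tested.

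Replicate numbers did not deviate together in all pairs. With the replicate block, counts of members were 1, 0 and 0 in myoblasts at 1, 3 and 6 h, 3, 1 and 0 in differentiated cells, 5 and 1 for change over time and 4 between the stages. Between the stages equal replicate numbers stand for different experiments, so nothing is read from that last count. The added calls were Pim1 in differentiated cells at 1 h (0.65, with replicates 4 and 10 unpaired) and over time in myoblasts. Over all genes, calls in differentiated cells at 1 h numbered 42, but 97 with DESeq2, 66 without a count filter or with experiment as a covariate, 126 in one model of the stage and 9 to 87 with a library left out. Without stretched replicate 9, calls fell from 187 to 123 in myoblasts at 1 h and from 324 to 211 at 6 h. Change over time was called for 656 genes in non-stretched myoblasts (1327 with DESeq2, 1429 with experiment, 1987 with the block) and for 17 in differentiated cells (407, 282 and 66; 49 without a count filter). With a library left out these became 287 to 1646 and 0 to 120.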

Other observations

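For each of the 9 genes, the genes with the most similar levels were sought among 11069 genes. Likeness was the lower of the 2 Pearson correlations of log2 CPM over the 24 libraries of each stage, and it is a description, since libraries share experiments, times and stretching. Sgk1 was most like the immediate early genes Fosb (r = 0.964 in myoblasts and 0.977 in differentiated cells), Nr4a1 (0.962 and 0.968) and Fos (0.929 and 0.958). Plk2 was most like the neurotrophic factor gene Gdnf (0.818 and 0.842), Cyr61 (0.807 and 0.897), which encodes a matrix protein known to respond to stretch, and the cAMP phosphodiesterase gene Pde4b (0.773 and 0.913). Among the genes most like Plk3 were Arid5a and the stress phosphatase subunit gene Ppp1r15a (0.775 and 0.736 as the lower of both).

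Pim1 was most like Mcph1 (0.885 and 0.861), Klf11 (0.856 and 0.865) and Ptk2b (0.847 and 0.83). Snrk was most like Cbx8 (0.907 and 0.912), Klhl42 (0.909 and 0.889) and Slx4 (0.885 and 0.938). The lower values for Sik1 were 0.816 for Mir22hg, 0.797 for Arl4c and 0.785 for Csnk1e, and for Pim3 they included 0.736 for Cnn2 and 0.735 for Axl. They were 0.797 for Dhx40, 0.776 for Manea and 0.751 for Ocrl beside Sgk3, and 0.709 for Hk2, 0.695 for Tmem189 and 0.69 for Dhcr7 beside Pim2. No other member was among the 3 most similar genes of any of the 9.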
